A study of Mus musculus with 8 samples.

Results

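Plasma cells are the antibody-secreting end stage of the B cell lineage. The transcription factors IRF4 and Blimp-1, the product of Prdm1, shut off the B cell program, and XBP1, OCA-B (the product of Pou2af1) and the proteins of the endoplasmic reticulum (ER) serve the high output of immunoglobulin. In the lung, plasma cells secrete IgA and other antibodies, and the J chain joins IgA dimers and IgM pentamers for transport across the epithelium. A set of 10 genes of this program, chosen by name, were examined in the lungs of tumor-bearing mice with and without the STAT3 inhibitor TTI-101: the transcription factors Prdm1, Irf4, Xbp1 and Pou2af1, the surface proteins Sdc1 (syndecan-1, CD138) and Tnfrsf17 (BCMA), and the secretory genes Jchain, Mzb1, Derl3 and Txndc5. These are 10 of the 54532 genes counted, and 9 of the 17138 genes with enough reads to be tested.

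Whole-lung RNA from CC-LR mice aged 14 weeks was sequenced, with 4 mice in the Control group and 4 that had received TTI-101 for 4 weeks, and 1 library was made per mouse. All 8 mice were CCSP Cre/LSL-K-ras G12D animals on the C57BL/6 background, in which Cre from the club cell secretory protein locus switches on mutant K-ras in lung epithelium, so the controls develop tumors too. How TTI-101 was delivered to the sequenced animals and what the controls received are not given in the sources used here. Gene counts are shown as CPM, the counts scaled to library size with TMM factors, and groups were compared by edgeR's two-sided quasi-likelihood test. Gene positions are those of the count table, on mm10. The libraries held 16075855 to 26873509 counts. Control mouse 4 stood apart on the first principal component of all genes, at 101 against -39.3 to 17.9 for the other 7 mice.

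At an adjusted p under 0.05, edgeR called 0 of the 9 tested plasma cell genes, against 0% of all genes, and DESeq2's Wald test called 0 of 10, against 0.0126% of all genes (4 of 31769 with an adjusted p). At an unadjusted p under 0.05, edgeR counted 3 of 9, where 6.61% of all genes passed. Pou2af1 and Irf4 were higher in TTI-101-treated lungs, a direction that 3.02% of all genes took at this threshold, and Derl3 was lower, as were 3.58% of all genes. For none of the 10 genes did all treated mice lie beyond all controls, a separation that 2.96% of all genes showed. The median log2 fold change of the 9 genes was 0.04 beside 0.0034 for all genes. The genes are described in groups by how they varied across the mice, a grouping made after their values were seen.

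**Figure D1:**
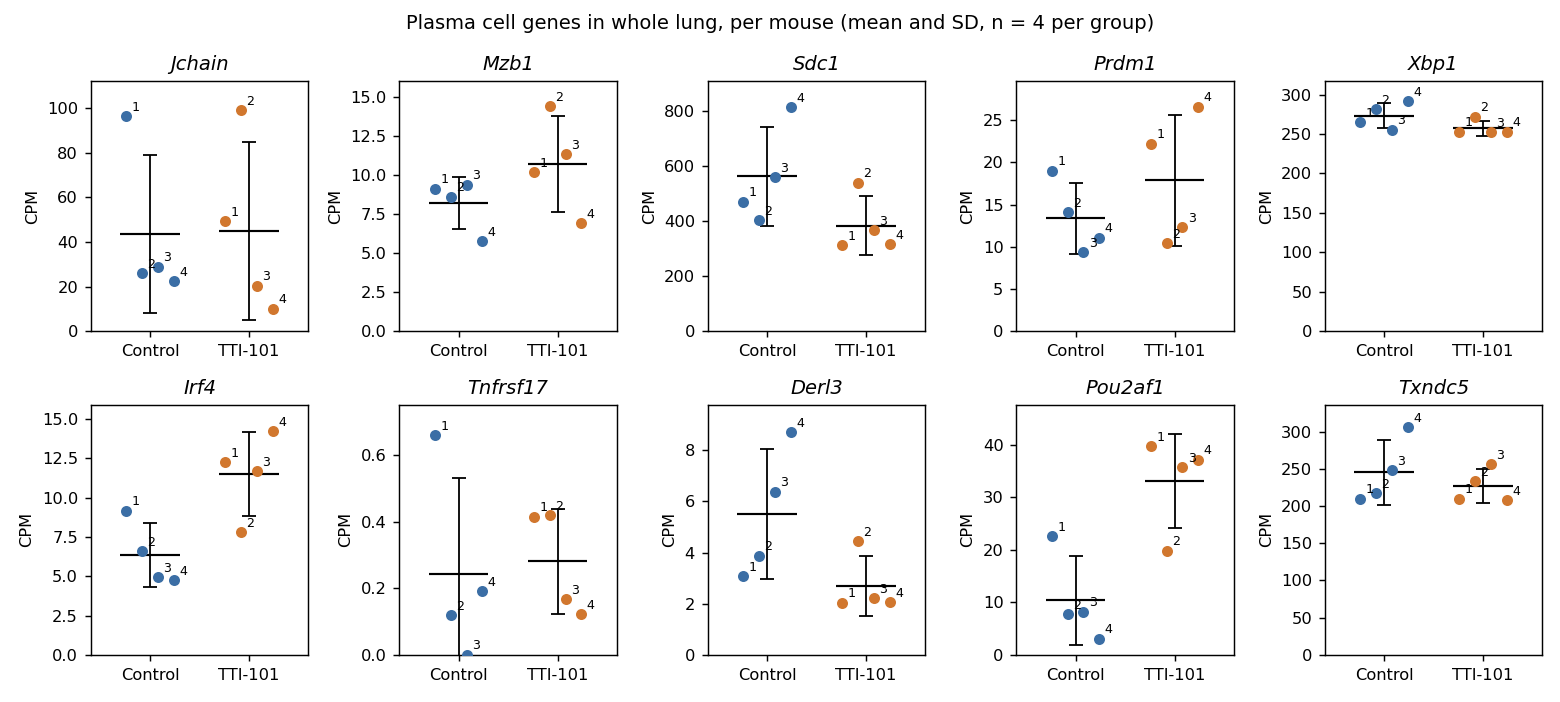
Level of each plasma cell gene in CPM (vertical axes from 0) in each Control and TTI-101-treated mouse. Points are mice with their replicate number, horizontal bars are group means and vertical bars are SD (n = 4, cut at 0 for Tnfrsf17). Pou2af1 and Irf4 sit higher in 3 of 4 treated mice than in any control, while Jchain is high in Control mouse 1 and TTI-101 mouse 2.

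Set against each other per kilobase of gene length, averaged over the 8 mice, the most abundant members were Sdc1 at 124 CPM per kb, Xbp1 at 81.7 and Txndc5 at 52.6. Jchain followed at 17.5 CPM per kb, Mzb1 at 10.5, Pou2af1 at 8.54, Prdm1 at 2.80, Derl3 at 2.06, Irf4 at 1.82 and Tnfrsf17 at 0.321. Neighbours in this order overlapped in their range over mice, except Xbp1 above Txndc5, Txndc5 above Jchain and Irf4 above Tnfrsf17. The 3 most abundant genes are also used outside plasma cells: syndecan-1 coats epithelial cells, and XBP1 and the protein disulfide isomerase TXNDC5 serve secretory cells of many kinds. Tnfrsf17, the receptor most restricted to plasma cells among the 10 (ENSMUSG00000022496, chromosome 16, 11313812 to 11320074), had few counts. They were 18, 2, 0 and 3 in Control mice 1 to 4 and 11, 7, 3 and 2 in TTI-101 mice 1 to 4, or 23 in each group, and it was not tested by edgeR. The levels per kb ranged 9.87-fold between the highest and the lowest mouse for Jchain and 12.9-fold for Pou2af1, but only 1.15-fold for Xbp1.

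Promoters were searched for elements known from B cells and from the unfolded protein response, because several of the 10 genes are known targets of these pathways. The bases before the transcription start in RefSeq (GRCm38.p6) are shown for the genes with a match. RefSeq promoters were matched for 9 of the 10 genes, all but Mzb1, and 3 motifs were searched on both strands in 250 bases before and 50 after each start. The core of the XBP1-bound unfolded protein response element (UPRE), TGACGTGG, was present in 0.676% of 32851 promoters and in those of Pou2af1 and Txndc5. The ER stress response element (ERSE), CCAAT and CCACG parted by 9 bases, was present in 0.119% of promoters and in that of Derl3, on the reverse strand. The octamer bound by OCA-B's partner factors, ATGCAAAT, was in 1.74% of promoters and in 0 of the 9. The other strand of the UPRE core contains CCACG, so the letters of both elements overlap in part. Capitals mark the motif.
Pou2af1, chr9:51213440-51213689, plus strand, UPRE core starting 61 bases before the start: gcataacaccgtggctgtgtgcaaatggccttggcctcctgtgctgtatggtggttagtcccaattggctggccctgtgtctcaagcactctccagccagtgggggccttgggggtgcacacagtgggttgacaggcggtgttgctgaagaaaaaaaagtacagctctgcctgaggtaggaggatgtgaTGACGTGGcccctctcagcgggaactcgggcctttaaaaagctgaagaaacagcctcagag
Txndc5, chr13:38527915-38528164, minus strand, upstream of 1 of 3 starts, UPRE core starting 138 bases before it: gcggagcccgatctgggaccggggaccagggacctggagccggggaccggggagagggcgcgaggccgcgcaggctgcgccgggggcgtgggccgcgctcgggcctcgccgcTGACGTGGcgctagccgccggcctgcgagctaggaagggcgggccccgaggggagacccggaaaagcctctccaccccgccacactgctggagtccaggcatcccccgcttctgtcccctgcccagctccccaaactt
Derl3, chr10:75893148-75893397, plus strand, both ends of the ERSE read on the reverse strand, starting 156 bases before the start: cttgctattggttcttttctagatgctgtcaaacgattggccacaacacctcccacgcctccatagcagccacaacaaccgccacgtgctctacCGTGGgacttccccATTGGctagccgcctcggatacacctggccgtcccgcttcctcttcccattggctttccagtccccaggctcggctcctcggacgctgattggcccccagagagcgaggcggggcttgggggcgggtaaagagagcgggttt
Of the 3 genes with a match, Pou2af1 was higher, Derl3 lower and Txndc5 nearly level in treated lungs. No single motif was found in all 3, and the part of the motifs in these levels was not tested. A match of letters is a description and does not show that a factor binds there.

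Pou2af1 and Irf4 were the members higher in TTI-101-treated lungs at an unadjusted p under 0.05, and neither passed after adjustment. Pou2af1 (ENSMUSG00000032053, chromosome 9, 51213708 to 51240080) encodes the B cell coactivator OCA-B, which B cells carry before they become plasma cells. Its level was 22.6, 7.71, 8.27 and 3.07 CPM in Control mice 1 to 4 and 39.7, 19.9, 35.8 and 37.2 CPM in TTI-101 mice 1 to 4. Treated mice 1, 3 and 4 lay above every control, and TTI-101 mouse 2 lay below Control mouse 1. The means were 10.4 ± 8.43 CPM in Control and 33.1 ± 8.99 CPM in treated lungs (SD, n = 4), a 3.16-fold difference (log2 fold change 1.66, standard error 0.49, edgeR unadjusted p = 0.0066, adjusted p = 0.657). The two-sided exact permutation test gave p = 0.0571, the lowest among the 10 members tested in this way and shared with Irf4. The smallest p that 70 assignments allow is 0.0286. DESeq2's adjusted p was 0.285. The fold change stayed between 1.37 and 2.38 on the log2 scale when any 1 mouse was left out, the lowest without Control mouse 4.

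Irf4 (ENSMUSG00000021356, chromosome 13, 30749226 to 30766976) encodes a dose-dependent factor of activated B cells and plasma cells that T cells and dendritic cells use as well. It was at 9.17, 6.58, 4.94 and 4.73 CPM in Control mice 1 to 4 and at 12.2, 7.81, 11.7 and 14.2 CPM in TTI-101 mice 1 to 4. Again, 3 of 4 treated mice exceeded every control, and TTI-101 mouse 2 was the exception. The means were 6.35 ± 2.05 and 11.5 ± 2.69 CPM (SD, n = 4), a 1.80-fold difference (log2 fold change 0.85, standard error 0.27, edgeR unadjusted p = 0.011, adjusted p = 0.657). The exact permutation test gave p = 0.0571 (two-sided). Leaving out any 1 mouse kept the log2 fold change between 0.73 and 1.09. Prdm1 (ENSMUSG00000038151, chromosome 10, 44437177 to 44528501), the gene of Blimp-1, overlapped between the groups. Its level was 19.0, 14.1, 9.38 and 11.1 CPM in Control mice and 22.2, 10.4, 12.3 and 26.6 CPM in treated mice, with a log2 fold change of 0.42 (standard error 0.33, edgeR adjusted p = 0.708). TTI-101 mice 1 and 4 exceeded every control, while mice 2 and 3 lay among them.

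**Figure D2:**
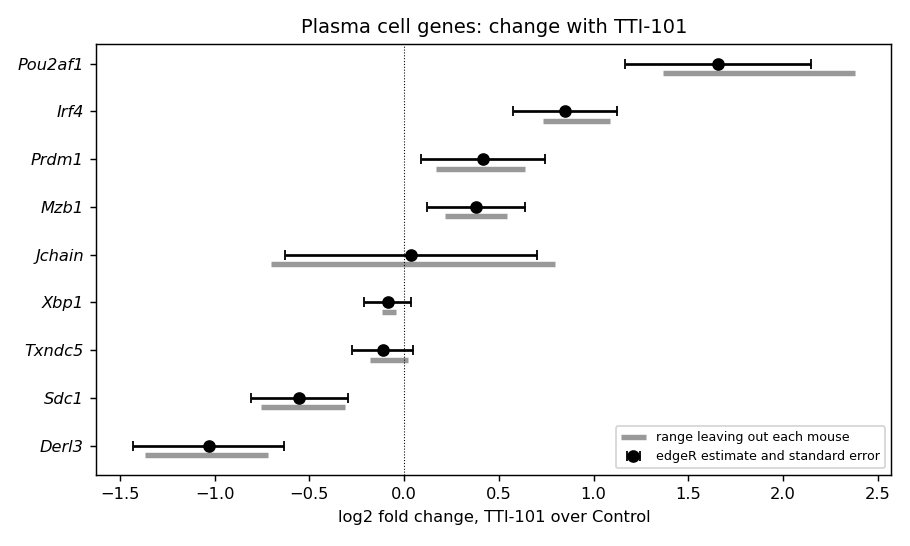
Log2 fold change of the 9 tested plasma cell genes, TTI-101 over Control (horizontal axis). Black points and bars are the edgeR estimate and its standard error, and grey bars span the estimates with each mouse left out in turn. Over the whole grey range, Pou2af1, Irf4, Prdm1 and Mzb1 lie above 0 and Xbp1, Sdc1 and Derl3 below 0, while Jchain (-0.70 to 0.79) and Txndc5 cross it.

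Genes that mark B cells at stages before the plasma cell were also higher in treated lungs. At an unadjusted p under 0.05, 15 of 18 B cell identity genes were higher in treated lungs (3.02% of all genes were) and 0 lower. Their median log2 fold change was 1.11. With each mouse left out in turn, 9 to 16 of the 18 were higher, against 1.03% to 7.15% of all genes. Without Control mouse 4 it was 11, against 1.92% of all genes, with a median of 0.90. Cd79a, a signalling chain of the B cell receptor, stood at 50.5, 34.6, 39.9 and 17.1 CPM in Control mice and 95.5, 60.6, 120 and 79.4 CPM in treated mice (log2 fold change 1.32, edgeR unadjusted p = 0.0015, adjusted p = 0.657). Cd79b, its partner chain, and Cd37, a tetraspanin of B cells, had log2 fold changes of 1.06 and 1.16, and Blk, a B cell kinase, of 1.03. Bcl6, the repressor of germinal centre B cells that Blimp-1 opposes, was at a log2 fold change of 0.05. The summed level of the list was 287 to 633 CPM in Control and 532 to 999 CPM in treated lungs. In bulk tissue, more cells of a type and more RNA per cell cannot be told apart.

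Across the 8 mice, the log2 CPM of Pou2af1 followed the mean log2 CPM of these 18 genes (Pearson r = 0.984, exact permutation p = 0.000149, and Spearman rho = 0.929, exact p = 0.00223). Adjusted over 21 relations, a family added after the values were seen, the p-values were 0.00156 and 0.0117. Irf4 followed them as well (r = 0.952, exact permutation p = 0.000521, adjusted 0.00229, and rho = 0.881, exact p = 0.00724, adjusted 0.0217). Without Control mouse 4 and TTI-101 mouse 3, the 2 farthest from the median, r was 0.975 for Pou2af1 and 0.947 for Irf4. As deviations from the group means, r was 0.964 and 0.886, so the relation was also present among mice of the same group. The first principal component of all genes, with 45.2% of the variance, ordered the mice as the mean of the 18 genes did, except for Control mice 2 and 3. How many of all genes follow this mean as closely was not counted. Prdm1 had r = 0.652 (exact permutation p = 0.0838) and rho = 0.50 (exact p = 0.216), Mzb1 had r = 0.409 (exact permutation p = 0.318) and rho = 0.524 (exact p = 0.197), and Jchain had r = -0.00838 (exact permutation p = 0.985) and rho = -0.119 (exact p = 0.793), with adjusted p-values for r of 0.126, 0.417 and 0.985. The 5 genes most like Pou2af1 over the 8 mice among 17137 compared were Fnbp1, Fcmr, Arhgap4, Tbc1d10c and Cd22, with r from 0.983 to 0.995. Fcmr, the IgM Fc receptor, and Cd22 are B cell genes.

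Jchain showed a different pattern, with similar group means and a wide spread within each group. Jchain (ENSMUSG00000067149, chromosome 5, 88519809 to 88527891) was at 96.3, 26.1, 28.8 and 22.5 CPM in Control mice 1 to 4 and at 49.2, 99.0, 20.4 and 10.0 CPM in TTI-101 mice 1 to 4. Control mouse 1 and TTI-101 mouse 2 were highest, TTI-101 mice 3 and 4 lay below every control, and TTI-101 mouse 2 just above all of them, so the treated mice spread beyond the controls on both sides. The means were 43.4 ± 35.3 and 44.7 ± 39.8 CPM (SD, n = 4), with a log2 fold change of 0.04 (standard error 0.66, edgeR adjusted p = 0.992). Without Control mouse 1 the log2 fold change was 0.79 and without TTI-101 mouse 2 it was -0.70, and the sign turned negative in 5 of the 8 fits that left out 1 mouse.

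Igha, the constant region of the IgA heavy chain, which the J chain joins into dimers, varied with Jchain. Its level was 340, 110, 197 and 63.3 CPM in Control mice and 178, 349, 133 and 37.2 CPM in treated mice, highest in Control mouse 1 and TTI-101 mouse 2 and lowest in TTI-101 mouse 4, as for Jchain. Over the 8 mice, r with Jchain was 0.920 (exact permutation p = 0.00186, adjusted over 12 relations 0.0223) and rho was 0.905 (exact p = 0.00456, adjusted 0.0548). Without the 2 mice farthest from the median, Control mouse 1 and TTI-101 mouse 2, r was 0.837, and as deviations from the group means it was 0.920. For Igkc, the kappa light chain, r was 0.724 (exact permutation p = 0.0402, adjusted 0.224) and rho 0.738 (exact p = 0.0458, adjusted 0.275). As deviations from the group means, over all 8 mice, r for Igkc was 0.864. The r of 0.724 for the levels themselves fell to 0.265 without Control mouse 1 and TTI-101 mouse 2, so that relation over the 8 mice rests on them. The r of the deviations was not computed without these mice. Among the other members, Tnfrsf17 had r = 0.698 (exact permutation p = 0.0561, adjusted 0.224) and rho = 0.595 (exact p = 0.132, adjusted 0.529), and Mzb1 had r = 0.611 (exact permutation p = 0.104, adjusted 0.313) and rho = 0.524 (exact p = 0.197, adjusted 0.590). Without the same 2 mice, r was 0.309 for Tnfrsf17 and 0.466 for Mzb1. The remaining 7 members had r between -0.219 and 0.216, of which none passed an exact p of 0.05.

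**Figure D3:**
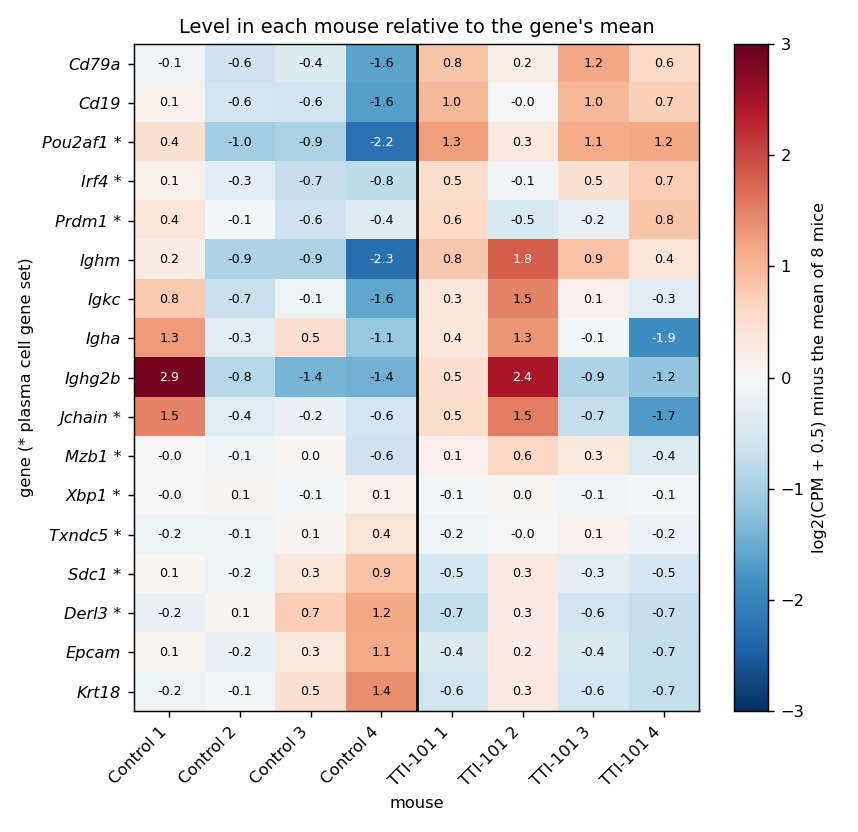
Level of each gene in each mouse (columns, Control left and TTI-101 right of the line) as log2(CPM + 0.5) minus the gene's mean over 8 mice, in colour and as a number. Plasma cell genes carry an asterisk (Tnfrsf17 is left out for its low counts), and the other genes are markers of B cells (top), immunoglobulin chains (middle) and epithelium (bottom), chosen after their values were seen. Control mouse 1 and TTI-101 mouse 2 are high for Jchain, Igha and Ighg2b, Control mouse 4 is low for Pou2af1 and Ighm and high for Sdc1 and Derl3.

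By isotype, the immunoglobulin constant genes showed both patterns. Of 11 tested, 4 were higher at an unadjusted p under 0.05 (3.02% of all genes were) and 0 lower, and the median log2 fold change was 0.53. Ighm, the IgM heavy chain, was at 219, 98.3, 98.8 and 38.6 CPM in Control mice and at 327, 659, 341 and 243 CPM in treated mice, without overlap (log2 fold change 1.78, edgeR unadjusted p = 0.0035, adjusted p = 0.657). Iglc2, a lambda light chain, had a log2 fold change of 1.07 (edgeR unadjusted p = 0.0059). Igha was at a log2 fold change of -0.03 (edgeR unadjusted p = 0.967) and Igkc at 0.73 (edgeR unadjusted p = 0.169). Ighg2b, an IgG heavy chain named after its values were seen, was at 56.8 CPM in Control mouse 1 and 41.7 CPM in TTI-101 mouse 2, against 2.37 to 10.4 CPM in the other mice. The relation of Ighm with Jchain had r = 0.407 (exact permutation p = 0.318) and rho = 0.262 (exact p = 0.536) over the 8 mice and r = 0.789 as deviations from the group means. Without Control mouse 1 and TTI-101 mouse 2, r of the Ighm levels, not of the deviations, was -0.00674 over the remaining mice. Constant genes of 1 class are near-identical in part, so reads may have been split between them.

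Mzb1 (ENSMUSG00000024353) encodes an ER chaperone partner of marginal zone B cells, plasma cells and plasmacytoid dendritic cells. It was at 9.13, 8.61, 9.38 and 5.76 CPM in Control mice and at 10.2, 14.4, 11.3 and 6.93 CPM in treated mice. Treated mice 1, 2 and 3 lay above every control and TTI-101 mouse 4 within them, which was also the treated mouse with the lowest Jchain. The log2 fold change was 0.38 (standard error 0.26, edgeR unadjusted p = 0.172, adjusted p = 0.680). Of 10 markers of plasmacytoid dendritic cells, 0 passed an unadjusted p of 0.05, where 6.61% of all genes passed. Their summed level was 289 to 367 CPM in Control and 335 to 386 CPM in treated lungs, with Siglech, a defining marker, at 2.77 and 2.57 CPM on average.

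Derl3 was lower in treated lungs at an unadjusted p under 0.05, and Sdc1, which did not pass it with edgeR, is described beside it. Sdc1 (ENSMUSG00000020592, chromosome 12, 8771323 to 8793715), whose protein CD138 is the standard surface marker of plasma cells and also an epithelial proteoglycan, was at 471, 404, 559 and 815 CPM in Control mice and at 312, 539, 366 and 315 CPM in treated mice. Treated mice 1, 3 and 4 lay below every control, and TTI-101 mouse 2 lay between Control mice 1 and 3. The means were 562 ± 180 and 383 ± 107 CPM (SD, n = 4), 1.47-fold lower in treated lungs (log2 fold change -0.55, standard error 0.26, edgeR unadjusted p = 0.056, adjusted p = 0.657). DESeq2's unadjusted p was 0.040. Without Control mouse 4, the log2 fold change was -0.31.

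Derl3 (ENSMUSG00000009092, chromosome 10, 75893413 to 75895941) encodes a derlin that helps to remove misfolded proteins from the ER. Its level was 3.08, 3.89, 6.38 and 8.70 CPM in Control mice and 2.03, 4.44, 2.22 and 2.07 CPM in treated mice, on 34 to 136 counts per library. As with Sdc1, treated mice 1, 3 and 4 lay below every control. The means were 5.51 ± 2.55 and 2.69 ± 1.17 CPM (SD, n = 4), 2.04-fold lower in treated lungs (log2 fold change -1.03, standard error 0.40, edgeR unadjusted p = 0.027, adjusted p = 0.657), and the exact permutation test gave p = 0.0857 (two-sided). Without Control mouse 4, the log2 fold change was -0.72 (edgeR unadjusted p = 0.086), and the unadjusted p also passed above 0.05, to between 0.062 and 0.072, without Control mouse 3 or TTI-101 mouse 1, 3 or 4.

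Markers of lung epithelium were lower in treated lungs too: 5 of 12 at an unadjusted p under 0.05 (3.58% of all genes were lower), 0 higher, with a median log2 fold change of -0.54. Their summed level was 51889 to 95906 CPM in Control and 38139 to 72500 CPM in treated lungs. None of the 12 was at 0 in any library. Without Control mouse 4, the mouse with the highest epithelial mean, 0 of the 12 passed and the median was -0.31. Then 1.11% of all genes were lower. Without TTI-101 mouse 1, 3 or 4, 0 of the 12 passed either, with medians of -0.47, -0.47 and -0.48. In these fits 1.81%, 1.39% and 2.1% of all genes were lower. Derl3 followed their mean log2 CPM (r = 0.973, exact permutation p = 9.92e-05, adjusted 0.00156, and rho = 0.952, exact p = 0.00114, adjusted 0.0117), as did Sdc1 (r = 0.969, exact permutation p = 0.000347, adjusted 0.00229, and rho = 0.929, exact p = 0.00223, adjusted 0.0117). Without Control mouse 4 and TTI-101 mouse 4, r was 0.953 for Derl3 and 0.916 for Sdc1, and as deviations from the group means it was 0.968 and 0.953. Against the B cell mean, Derl3 had r = -0.956 (exact permutation p = 0.000546, adjusted 0.00229, and rho = -0.857, exact p = 0.0107) and Sdc1 r = -0.869 (exact permutation p = 0.00593, adjusted 0.0138, and rho = -0.786, exact p = 0.0279). Without the 2 mice farthest from the B cell median, r was -0.913 for Derl3 (exact permutation p = 0.0181) and -0.746 for Sdc1 (exact permutation p = 0.106). Irf4, Pou2af1 and Prdm1 ran against the epithelial mean. For Irf4 r was -0.924 (exact permutation p = 0.000942, adjusted 0.0033, and rho = -0.929, exact p = 0.00223), for Pou2af1 r was -0.897 (exact permutation p = 0.00273, adjusted 0.00716, and rho = -0.881, exact p = 0.00724) and for Prdm1 r was -0.804 (exact permutation p = 0.0174, adjusted 0.0327, and rho = -0.833, exact p = 0.0154). Without the 2 mice farthest from the epithelial median, these values of r were -0.873, -0.752 and -0.826 (exact permutation p = 0.0306, 0.0917 and 0.0556). Jchain had r = 0.165 with the epithelial mean (exact permutation p = 0.697) and rho = 0.357 (exact p = 0.389). The epithelial and B cell means were themselves opposed over the 8 mice (r = -0.926, exact permutation p = 0.00149, adjusted 0.00446, and rho = -0.810, exact p = 0.0218), so that a gene that follows 1 of them runs against the other. The 5 genes most like Sdc1 were Adgrg1, Clu, Gm15217, Kctd1 and Epcam, an epithelial adhesion molecule, with r from 0.981 to 0.990. Those most like Derl3 were Kctd14, 4933434E20Rik, Mt1, Selenos and Trf, with r from 0.988 to 0.995. Selenos, like Derl3, serves ER-associated degradation. How many of all genes follow the epithelial mean as closely was not counted. The part of the epithelial and B cell markers in the values of Sdc1, Derl3, Pou2af1 and Irf4 was not tested.

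**Figure D4:**
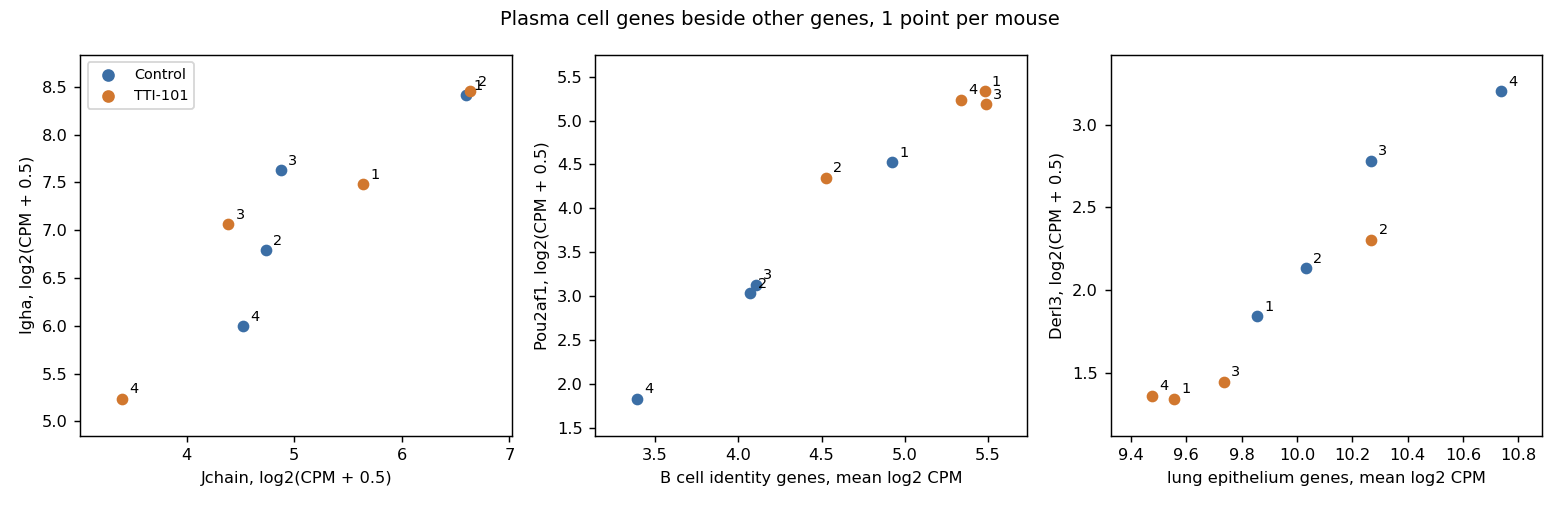
Levels in each of the 8 mice (points, numbered by replicate, Control blue and TTI-101 orange) of Igha against Jchain, of Pou2af1 against the mean of 18 B cell identity genes and of Derl3 against the mean of 12 lung epithelium genes, all on log2 CPM axes. Pearson r was 0.920, 0.984 and 0.973, and mice of both groups lie along each trend.

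Xbp1 and Txndc5 were close to level. Xbp1 (ENSMUSG00000020484, chromosome 11, 5520659 to 5525893), the factor that expands the ER of secretory cells, was at 265, 281, 256 and 291 CPM in Control mice and at 253, 272, 252 and 253 CPM in treated mice. TTI-101 mice 1, 3 and 4 lay just below every control, but the difference was small (log2 fold change -0.09, standard error 0.13, edgeR adjusted p = 0.843). With the epithelial mean, Xbp1 had r = 0.782 (exact permutation p = 0.0210, adjusted 0.0339, and rho = 0.810, exact p = 0.0218) and Txndc5 r = 0.783 (exact permutation p = 0.0187, adjusted 0.0327, and rho = 0.690, exact p = 0.0694). Both relations rest on Control mouse 4 and TTI-101 mouse 4, without which r was 0.481 and 0.364. With the B cell mean, Xbp1 had r = -0.838 (exact permutation p = 0.0103, adjusted 0.0217, and rho = -0.905, exact p = 0.00456, adjusted 0.0192). Without Control mouse 4 and TTI-101 mouse 3, r was -0.643 and no longer passed an exact p of 0.05 (exact permutation p = 0.178). Gene counts do not show the splicing of Xbp1 mRNA that yields the active protein. Txndc5 (ENSMUSG00000038991, chromosome 13, 38500079 to 38528824) was at 210, 217, 248 and 306 CPM in Control mice and at 210, 233, 256 and 208 CPM in treated mice, with TTI-101 mouse 4 just below the lowest control and the others among them (log2 fold change -0.11, standard error 0.16, edgeR adjusted p = 0.841). Bmp6 overlaps Txndc5 on the other strand. The library kit kept strand, but whether the counts used strand is not given in the sources used here.

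Most genes of the wider secretory machinery had log2 fold changes slightly below 0. Of 30 genes of ER chaperones and the unfolded protein response, 0 passed an unadjusted p of 0.05, where 6.61% of all genes passed. A log2 fold change below 0 was seen for 24, against 8469 of all 17138 tested genes, with a median of -0.17. The most abundant per kb were P4hb, a disulfide isomerase (log2 fold change -0.40), the lectin chaperone Calr (-0.03) and Pdia3, its partner isomerase (-0.22). Of 32 genes of ER translocation, signal peptidase and export, 5 (15.6%, against 3.58% of all genes) were lower at an unadjusted p under 0.05 and 0 higher, 26 lay below 0 and the median was -0.21. Sec61g, a subunit of the translocation channel, had a log2 fold change of -0.55 (edgeR unadjusted p = 0.013, adjusted p = 0.657), and Spcs3, of the signal peptidase, of -0.37 (edgeR unadjusted p = 0.019). Ddost, Rpn2 and Fkbp2, the most abundant per kb, were at 0.03, -0.07 and -0.24. Most cells of the lung use these genes, and Control mouse 4 had the highest mean of both lists. Without it, 1 of the 32 was lower, against 1.11% of all genes, and the medians of the lists were -0.09 and -0.08.

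**Figure D5:**
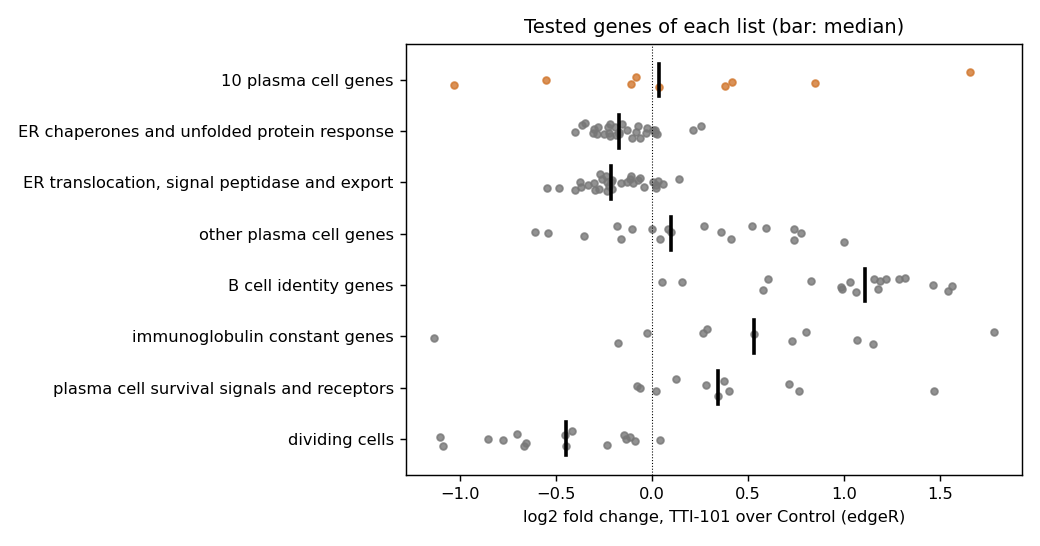
Log2 fold change, TTI-101 over Control (edgeR, horizontal axis), of each tested gene of the 10 plasma cell genes (orange) and of 7 lists of related genes (grey), with the median of each as a black bar. B cell identity genes lie at a median of 1.11, both ER lists slightly below 0, and the plasma cell genes spread from -1.03 to 1.66.

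Of 19 other plasma cell genes tested, 1 was higher and 1 lower at an unadjusted p under 0.05 (3.02% and 3.58% of all genes), with a median log2 fold change of 0.10. Pou2f2, the octamer factor OCT2 with which OCA-B acts, was at 22.6, 7.47, 12.2 and 6.20 CPM in Control mice and at 26.6, 15.5, 30.5 and 25.1 CPM in treated mice (log2 fold change 1.00, edgeR unadjusted p = 0.025, adjusted p = 0.657). As for Pou2af1, 3 of its treated mice exceeded every control and TTI-101 mouse 2 did not. Tent5c, a poly(A) polymerase that stabilizes immunoglobulin mRNA, was lower (log2 fold change -0.61, edgeR unadjusted p = 0.025). For Tent5c the exact permutation p was 0.143 (two-sided), and 0 treated mice lay below every control. With each mouse left out in turn, 0 to 5 of the 19 were higher, against 1.03% to 7.15% of all genes. The count was 0 without Control mouse 2 or 4 or TTI-101 mouse 1 or 3, so Pou2f2 did not pass there. Without Control mouse 3 or 4 or TTI-101 mouse 3, 0 were lower, so Tent5c did not pass. Mcl1, a survival factor of plasma cells, Cd93 and the homing receptor Cxcr4, all also used by other lung cells, were at 0.09, 0.59 and 0.52.

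Among 11 tested survival signals and receptors, 3 were higher and 0 lower at an unadjusted p under 0.05 (3.02% and 3.58% of all genes), with a median of 0.34. The receptors Tnfrsf13c (BAFF receptor) and Tnfrsf13b (TACI), relatives of BCMA that B cells carry, had log2 fold changes of 1.47 and 0.71 (edgeR unadjusted p = 0.0044 and 0.014), against 23 counts in each group for Tnfrsf17. Il6st, the signalling chain of the IL-6 receptor, Stat3, the gene of the drug's target, and Socs3, a STAT3 target, were at 0.02, -0.08 and -0.06. Of 16 genes of dividing cells, a state that plasmablasts share with tumor cells, 5 were lower (3.58% of all genes were) and 0 higher, with a median of -0.45. Without Control mouse 4, which had the highest mean, 1 was lower, against 1.11% of all genes, and the median was -0.33. Mki67 and Ccnb1 had log2 fold changes of -1.09 and -1.10, while Pcna, Mcm3 and Ccnb2, the most abundant per kb, were at -0.09, 0.04 and -0.45.

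Markers of other cell types moved between the groups as well, and their part in the values above was not tested. At an unadjusted p under 0.05, where 3.02% of all genes were higher, 4 of 5 tested red blood cell genes were higher (summed level 58.5 to 264 CPM in Control and 205 to 1587 CPM in treated lungs). So were 3 of 8 endothelial genes, 1 of 10 T cell genes (summed level 37.5 to 128 and 72.5 to 148 CPM), 1 of 10 genes of alveolar macrophages and 0 of 8 fibroblast genes. All 10 T cell genes, all 8 endothelial genes and all 8 fibroblast genes lay above 0, against 8669 of all 17138 tested genes, with medians of 0.69, 0.58 and 0.29. Without Control mouse 4, in which the endothelial mean was lowest, these medians were 0.48, 0.40 and 0.16. Of 10 genes of mature and classical dendritic cells, which also use Irf4, 1 was higher and 2 lower (3.02% and 3.58% of all genes). Their summed level was 121 to 184 CPM in Control and 179 to 202 CPM in treated lungs. Without TTI-101 mouse 2, which stood apart from the other treated mice for several of these genes, 5 of the 10 plasma cell genes separated the groups, Irf4 and Pou2af1 being higher and Sdc1, Xbp1 and Derl3 lower, while 13.8% of all genes then separated them.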

How the data were processed

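RNA was extracted from cryopreserved whole lung, and the sequencing provider made poly(A)-selected libraries, read both ends and applied an in-house pipeline. The submitters' processing notes name STAR, DESeq2 and mm10 without a role, and the counting tool and annotation are not given in the sources used here. The authors deposited unnormalized whole-number counts for 54532 genes. Totals were 16446481 to 26873509 in Control and 16075855 to 25920509 in TTI-101 libraries, and the 8 mice, taken as replicates, limit the precision.

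From the counts, edgeR 4.0.16 in R 4.3.3 kept 17138 genes (filterByExpr, minimum count 10), scaled libraries by TMM and fitted robust quasi-likelihood models without covariates, with Benjamini-Hochberg adjustment over all tested genes. DESeq2 1.42.0 and limma-voom (limma 3.58.1) were alternatives, with 2 other scalings, no filter, a replicate block and each mouse left out. Correlations used log2 CPM (prior count 2) and exact permutation over 40320 pairings. Code was tested on simulated data.

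The members and lists were chosen with earlier results of these data known. Named were all members, in each related list the 3 genes highest per length and the 2 of lowest p in each direction, and the 5 genes most like Jchain. Ighg2b, Bcl6, Epcam, Siglech and the like genes of other members were named, and the relations with list means and the lists with each mouse left out added, after values were seen. The study used both sexes, and the sex and batch of each library were not used here.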

Additional observations from a re-analysis of the deposited data

Results flagged for a closer look

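In each group of 4 mice, the gap of the highest or lowest mouse to its nearest neighbour, as a share of the group's range, was set against Dixon's 95% limit for the members, their immunoglobulin partners and the list means. Of 56 groups, 4 exceeded it, where chance gives about 1 in 20, or 2.8. Jchain in Control mice had a share of 0.914, with Control mouse 1 at 96.3 CPM and the others at 22.5 to 28.8 CPM. Xbp1 in TTI-101 mice had a share of 0.973, with TTI-101 mouse 2 at 272 CPM and the others at 252.3 to 252.9 CPM. Derl3 in TTI-101 mice had a share of 0.922, with TTI-101 mouse 2 at 4.44 CPM against 2.03 to 2.22 CPM. The mean log2 CPM of the B cell identity genes in TTI-101 mice had a share of 0.846, with TTI-101 mouse 2 at 4.53 against 5.34 to 5.49. The last 3 are the same mouse, whose Jchain, Ighm and Igkc were the highest of the 8.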

How the results depend on the processing

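The count of members at an adjusted p under 0.05 was 0 under all 14 alternatives run, and that at an unadjusted p under 0.05 was 2 to 4. It was 2 without Control mouse 3 or 4 or TTI-101 mouse 1, 3 or 4, where 2.42% to 4.74% of all genes passed. It was 4 without Control mouse 1 (13.7% of all genes), Control mouse 2 (6.51%) or TTI-101 mouse 2 (14.2%). DESeq2 also gave 4, where 1689 of 31830 genes passed. The fit without a filter gave 4 as well, and the share of all genes there was not counted. Pou2af1 and Irf4 kept an unadjusted p under 0.05 in all alternatives. Jchain changed sign, to -0.20 with limma-voom and -0.23 with the replicate block, and ranged from -0.70 to 0.79 with 1 mouse left out. Txndc5 ranged from -0.18 to 0.021, the highest, with changed sign, without Control mouse 4. The median of the members ranged from -0.11 to 0.44 with 1 mouse left out, the highest without Control mouse 1, and was 0.10 over all 10 members without a filter. The count of members that separated the groups ranged from 0 to 5, with 2 without Control mouse 1 (10.8% of all genes separated), 1 (Mzb1) without TTI-101 mouse 4 (5.69%) and 5 without TTI-101 mouse 2 (13.8%). Sdc1 passed an unadjusted p of 0.05 without a filter (0.025), with DESeq2 (0.040) and without Control mouse 1 (0.047), Control mouse 2 (0.028) or TTI-101 mouse 2 (0.012).

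With 1 mouse left out, r with Jchain ranged from -0.0783 to 0.551 for Sdc1, -0.401 to 0.347 for Prdm1, -0.0994 to 0.403 for Xbp1, -0.279 to 0.308 for Irf4, -0.221 to 0.316 for Derl3 and -0.0829 to 0.430 for Pou2af1, and from 0.868 to 0.952 for Igha. The cause of these changes was not tested. The r of same-numbered deviations was 0.393, 0.0822, 0.158 and 0.0707 for replicates 1 to 4. Mice of unlike number were not compared, so whether the numbers pair the mice cannot be told. The libraries numbered 1 had the most counts, 26873509 in Control and 25920509 in TTI-101, against 16075855 to 18220467 in the others. With the replicate block, the edgeR unadjusted p was 0.0035 for Pou2af1, 0.018 for Irf4 and 0.0486 for Derl3. The share of all genes under 0.05 in that fit was not counted. The low counts of Tnfrsf17 limit any statement on it.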

Other observations

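The 5 genes with the highest r with Jchain over the 8 mice, among 17137 compared, were Twnk (0.956), Cdk2 (0.924), Igha (0.920), Cd86 (0.912) and Gm14027 (0.904). Cd86 is a costimulatory molecule of B cells and antigen-presenting cells. For Mzb1 the most alike was Tnfrsf4 (0.983), a costimulatory receptor of T cells. For Prdm1 it was Pcf11 (0.991), for Xbp1 Grip1 (0.963), for Irf4 Bcas3os1 (0.986) and for Txndc5 Cbr3 (0.985).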
